A study of Capra hircus with 4 samples.

Results

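The genes described here are the transcriptional coactivators PPARGC1A and PPARGC1B, the nuclear receptors PPARA, PPARD and ESRRA, the mitochondrial transcription factor TFAM, and the fuel-handling genes PDK4, UCP3 and CPT1B. They were taken by gene name from the table that pairs unigenes (assembled transcript sequences) with goat proteins. Of the 9 listed genes, 7 were found, in 17 of the 21195 unigenes paired with a named goat gene, and among 11208 named goat genes. No unigene was paired under the names PPARD and TFAM. All libraries came from the longissimus dorsi muscle of male Cashmere goats aged 2 months. One library, labelled control, came from an untreated goat or goats, and 3 came from goats given ractopamine, a β-adrenergic agonist, by mouth at 1 mg/kg in a study with 28 dosing days followed by 21 withdrawal days. The labels give no sampling day for a library, and do not say whether a library held 1 animal or several, so the treated libraries are called by their numbers.

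PPARGC1A encodes PGC-1α, a coactivator that binds nuclear receptors and raises transcription of genes for mitochondria and fatty acid oxidation. PPARGC1B encodes the related PGC-1β. PPARα, PPARδ and ERRα are receptors that PGC-1 proteins dock on, and PDK4, UCP3 and CPT1B are among the genes these receptors are known to control in skeletal muscle. β-adrenergic stimulation, through cAMP, is a known inducer of PPARGC1A transcription in muscle.

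The deposited sequences show what the unigenes of these genes are. Unigene c55781_g1, which was paired with PPARGC1A, is shown because it holds the only leucine-rich LXXLL motif, the contact that lets a coactivator dock on a nuclear receptor, found in the predicted coding parts of the 5 unigenes paired with PPARGC1A. The codons of the motif are in capitals, and the stretch covers bases 94 to 150 of the unigene.
c55781_g1 (PPARGC1A): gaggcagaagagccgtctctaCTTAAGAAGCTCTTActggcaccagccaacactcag
The next sequences are shown because the table gave 1 gene name to unigenes of different genes. Unigene c12571_g2 was paired with PPARA at 100% identity, whereas c2916_g1 was paired with PPARA at 62% and had a PPARγ gene as its best nucleotide match. In the window of 60 coding bases printed, 14 bases differed, in capitals, and over 609 aligned coding bases the identity of the 2 unigenes was 68.6%.
c12571_g2 (PPARA): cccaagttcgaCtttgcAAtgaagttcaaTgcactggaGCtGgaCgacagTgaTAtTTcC
c2916_g1 (PPARG by nucleotide match): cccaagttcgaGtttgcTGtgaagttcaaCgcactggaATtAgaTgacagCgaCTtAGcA
In the same way, c13789_g1 was paired with PDK4 at 100% identity, and c16996_g1 was paired with PDK4 at 55% with PDK3 as its nucleotide match. Their windows of 60 coding bases differed at 14 bases.
c13789_g1 (PDK4): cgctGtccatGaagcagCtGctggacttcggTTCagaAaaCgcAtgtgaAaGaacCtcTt
c16996_g1 (PDK3 by nucleotide match): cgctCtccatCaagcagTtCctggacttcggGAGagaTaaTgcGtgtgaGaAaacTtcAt

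The depth differed strongly between libraries. All counts were 8533046 in the control library, against 7962590, 7339521 and 6675218 in treated libraries 1, 2 and 3, but the counts of named goat genes were 6086312, 3991046, 133809 and 2697657. Most of the rest were paired with proteins of the mitochondrial genome that carry no gene name. In treated library 2 named goat genes held only 1.82% of all counts, against 71.3% in the control library. Gene levels are therefore given as counts per 1000000 counts of named goat genes, and the x-fold is the treated level divided by the control level. A count of 0 allowed a level of up to 22.4 per 1000000 in treated library 2 (3 counts), against 0.493, 0.752 and 1.11 in the control library and treated libraries 1 and 3, so values of treated library 2 are coarse. Brackets after an x-fold give the exact 95% Clopper-Pearson interval, which covers counting error only. Markers of muscle fibres were high in all libraries, with 8 of 10 found and summed levels of 97500, 102000, 112000 and 151000 per 1000000 in the control library and treated libraries 1, 2 and 3, and 1 of them (of 8) was at 0 in treated library 2. Adipocyte markers summed to 14.8, 111, 859 and 28.5 per 1000000 (3 of 6 found, none at 0), fibroblast markers to 85.4, 94.7, 4240 and 147 (3 of 3, none at 0) and endothelial and smooth muscle markers to 350, 204, 830 and 377 (5 of 5, none at 0), so non-muscle markers were highest in treated library 2. No marker of heart muscle or blood was found by name. The part of these cells in the results below was not tested.

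Per kilobase of unigene and per 1000000 counts of named goat genes, PDK4 was the most abundant of the 7 genes in the control library, at 778, followed by UCP3 at 180, ESRRA at 83.5, CPT1B at 76.6, PPARA at 8.68, PPARGC1B at 3.89 and PPARGC1A at 3.10. With 1 control library, the spread behind this order was not measured, and ESRRA and CPT1B, and PPARGC1B and PPARGC1A, were close neighbours. In treated library 3 the order was UCP3 at 131, ESRRA at 73.8, PDK4 at 43.8 and CPT1B at 14.4. PDK4 was below UCP3 and ESRRA there, and PPARGC1A was last at 0.15.

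**Figure D1:**
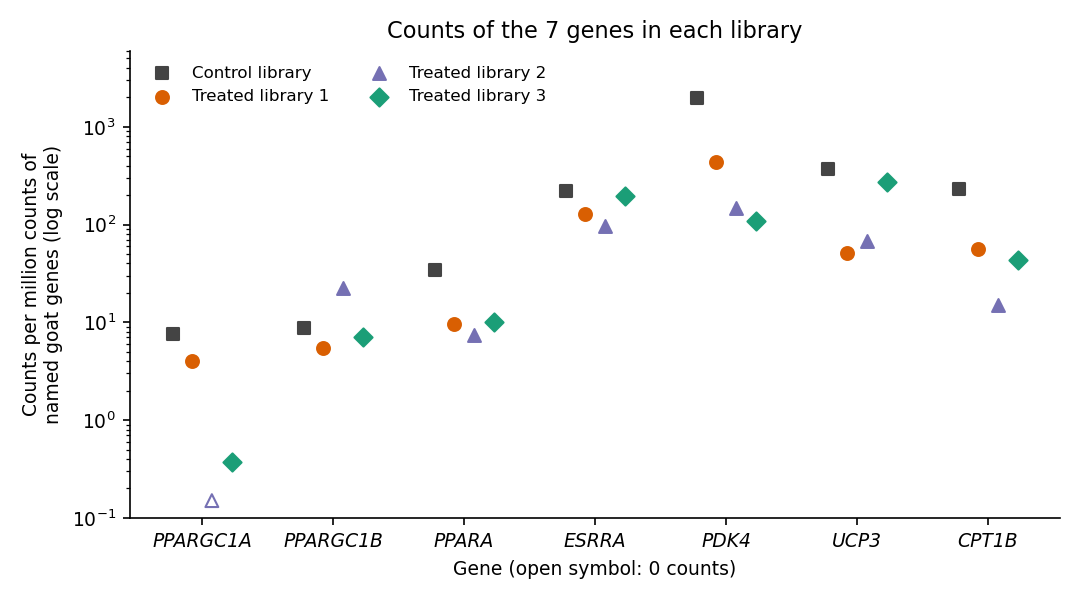
Level of each of the 7 genes (y axis, counts per 1000000 counts of named goat genes, log scale) in the control library and treated libraries 1, 2 and 3, with an open symbol at the bottom for 0 counts. The control library is the highest of the 4 for every gene except PPARGC1B, whose value in treated library 2 (22.4) rests on 3 counts.

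The coactivators were the rarest of the 7 transcripts in the control library. PPARGC1A had 46 counts in the control library, against 16, 0 and 1 in treated libraries 1, 2 and 3. Its x-fold was 0.53 (0.28 to 0.955) in treated library 1 and 0.049 (0.00122 to 0.287) in treated library 3. A lower level was not detectable in treated library 2, where the interval reached 3.8. PPARGC1B had 53 counts in the control library, against 22, 3 and 19 in the treated libraries. The x-folds of PPARGC1B were 0.633 (0.367 to 1.06), 2.57 (0.515 to 7.94) and 0.809 (0.452 to 1.39), so in no treated library could the sum be told apart from the control at this depth. Its unigenes differed. In treated libraries 1 and 3, c24223_g1 (22 control counts) was at 0.0693 (0.00168 to 0.429) and 0.205 (0.0234 to 0.834). By contrast, c43298_g1 (27 control counts) was at 1.19 (0.638 to 2.18) and 1.17 (0.567 to 2.31). The remaining paired unigenes had 4 counts or fewer in any library.

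The receptors did not move alike. PPARA, the receptor for fatty acids that governs their oxidation, had 208 counts in the control library, against 38, 1 and 27 in treated libraries 1, 2 and 3. Its x-fold was 0.279 (0.192 to 0.395), 0.219 (0.00551 to 1.23) and 0.293 (0.188 to 0.439), below 1 in each, with an interval that reached above 1 in treated library 2. The PPARA unigene printed above, c12571_g2, had 197, 12, 0 and 10 counts, which gave 0.0929 (0.0472 to 0.166) and 0.115 (0.0541 to 0.215) in treated libraries 1 and 3. By contrast, the unigene c2916_g1, with the PPARγ match, had 7, 21, 1 and 12 counts and x-folds of 4.57 (1.87 to 12.7) and 3.87 (1.4 to 11.6) in the same libraries. The sum under the name PPARA thus held 2 kinds of sequence that went opposite ways. ESRRA, an orphan receptor that works with PGC-1α, was measured in 1 unigene with 1336, 513, 13 and 524 counts. Its x-folds were 0.586 (0.528 to 0.649), 0.443 (0.235 to 0.759) and 0.885 (0.798 to 0.98), which was the change nearest to none among ESRRA, PDK4, UCP3 and CPT1B in treated libraries 1, 2 and 3.

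Among the fuel genes, PDK4 and CPT1B, by their protein-paired unigenes, lay far below the control in every treated library, which for PDK4 in treated library 1 did not hold once nucleotide-matched unigenes were added (0.961). PDK4 encodes a kinase that shuts off pyruvate dehydrogenase and so spares glucose when fat is burned. It had 11892 counts in the control library, against 1749, 20 and 298 in treated libraries 1, 2 and 3. Its x-folds were 0.224 (0.213 to 0.236), 0.0765 (0.0467 to 0.118) and 0.0565 (0.0502 to 0.0634). All treated libraries lay below the control, and the intervals of treated libraries 2 and 3 overlapped. CPT1B, the muscle enzyme that passes long-chain fatty acids into mitochondria, had 1408, 224, 2 and 117 counts. The x-folds of CPT1B were 0.243 (0.21 to 0.28), 0.0646 (0.00782 to 0.234) and 0.187 (0.154 to 0.227), and all intervals lay below 0.6. UCP3, a mitochondrial carrier of the inner membrane, had 2274, 203, 9 and 739 counts. Its x-folds were 0.136 (0.117 to 0.157), 0.18 (0.0822 to 0.342) and 0.733 (0.674 to 0.797). UCP3 was thus far below the control in treated libraries 1 and 2 and less so in treated library 3, while PDK4 was further below the control in treated library 3 than in treated library 1. In whole muscle, fewer cells of a type and less RNA per cell cannot be told apart.

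The study screened genes by x-folds above 3 or below 0.6, together with a p-value limit, x-folds alike across its sampled days, and signal pathways. Only the x-fold limits were applied here, without a p. Of the 7 genes, 6 reached the mean of 5 counts per 1000000 that was set for such calls, and PPARGC1A did not reach it. For a call below 0.6, a treated count under 3 was taken as 3, and for a call above 3, a control count under 3 was taken as 3. The 1 count of PPARA in treated library 2, taken as 3, was then not below 0.6, although its x-fold of 0.219 was. Below 0.6 were 5 of 6 in treated library 1 (PPARA, ESRRA, PDK4, UCP3 and CPT1B), where 33.7% of all 6765 genes tested were below 0.6. In treated library 2 the count was 4 of 6, against 21.0% of all genes, and in treated library 3 it was 3 of 6, against 34.8%. PDK4 and CPT1B were called below 0.6 in all 3 treated libraries, as were 8.97% of all genes. With 0.5 added to every count in place of that rule, PPARA was called in treated library 2 too, which gave 5 of 6 there and 3 of 6 in all treated libraries. With nucleotide-matched unigenes added, PDK4 was at 0.961 in treated library 1 and its call there was lost. Of the 6, 0 were above 3 in treated libraries 1, 2 and 3, where 5.03%, 13.3% and 2.47% of all genes were. The median x-fold of the 6 genes was 0.261, 0.199 and 0.513 in treated libraries 1, 2 and 3, beside 0.792, 0.754 and 0.752 over all genes. All these comparisons share the 1 control library, so each control value enters 3 x-folds. The ESRRA interval in treated library 1 crossed 0.6. Without treated library 3, ESRRA and UCP3 were also called in both libraries left, which made 4 of 6. The shares of all genes called in that pair of libraries, and called with 0.5 added to every count, were not calculated.

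The fit across all genes, which took the treated libraries as replicates of each other and assumed that the lone control library varied like them, called none of the 7 genes. PDK4 had a log2 fold change of -2.72 (SE 0.81), with an unadjusted p of 0.0015 and an adjusted p of 0.11 by edgeR's quasi-likelihood test with Benjamini-Hochberg adjustment, and it was lower in 3 of 3 treated libraries. For CPT1B the log2 fold change was -2.11 (SE 0.72), with an adjusted p of 0.172 in edgeR, lower in 3 of 3. PPARA had -1.47 (SE 0.72) and an adjusted p of 0.432 in edgeR. These were the 3 of 7 genes with an unadjusted p under 0.05. The log2 fold changes of the other genes were -1.36 for PPARGC1A, 0.15 for PPARGC1B, -0.29 for ESRRA and -1.13 for UCP3, with adjusted p of 0.666, 0.982, 0.953 and 0.682 in edgeR. In all, 12 of 8494 genes (0.141%) were called higher and 26 (0.306%) lower, and 949 had an unadjusted p under 0.05. The calls higher and lower were 5 and 2 without treated library 1, 19 and 49 without treated library 2, and 1 and 0 without treated library 3. DESeq2 gave an adjusted p for 4 of the 7 (ESRRA, PDK4, UCP3 and CPT1B) and called none of these, with 2 of the 7 at an unadjusted p under 0.05. Over the alternative settings, the adjusted p of PDK4 ranged from 0.054 to 0.958 and that of CPT1B from 0.0718 to 0.958. Nothing in the labels says that the treated libraries came from separate goats of 1 condition. The paper describes RNA-seq on several sampled days with corresponding controls, so the treated libraries may differ in day. These p-values set the difference from the control library against the spread between the treated libraries only.

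The pairing with goat proteins left out unigenes whose best nucleotide match named the same genes, and for PPARGC1A and PDK4 these behaved differently. Unigene c10770_g1, of 1738 bases, matched PPARGC1A by nucleotides only, and ended in a run of 5 A with the polyadenylation signal AATAAA 22 bases before it. It had 30 counts in the control library, against 176, 2 and 11 in treated libraries 1, 2 and 3, an x-fold of 8.95 (6.05 to 13.7) in treated library 1. In the same library, c55781_g1, with the LXXLL codons printed above, went from 16 counts to 0, with an interval of the x-fold that reached 0.395. Of the 5 unigenes paired with PPARGC1A, c667_g1 alone had more counts in treated library 1 than in the control library, 9 against 5, with an x-fold of 2.74 (0.826 to 10.4). Thus the unigenes paired with the PPARGC1A protein were together lower in treated library 1, and c10770_g1, which was not paired with it, was higher.

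For PDK4, unigene c13789_g5 of 1467 bases ended, on its reverse complement, in 8 A with AATAAA 18 bases before them. It had 5323 counts in the control library, against 9097, 38 and 506 in treated libraries 1, 2 and 3. The x-folds were 2.61 (2.52 to 2.7), 0.325 (0.23 to 0.446) and 0.214 (0.195 to 0.235). The protein-paired PDK4 unigene c13789_g1, printed above, had 11886, 1749, 20 and 297. In treated library 1 the 2 unigenes of PDK4 therefore went opposite ways, whereas in treated libraries 2 and 3 both were below the control. No run of 20 bases was shared between c13789_g1 and c13789_g5 on either strand.

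**Figure D2:**
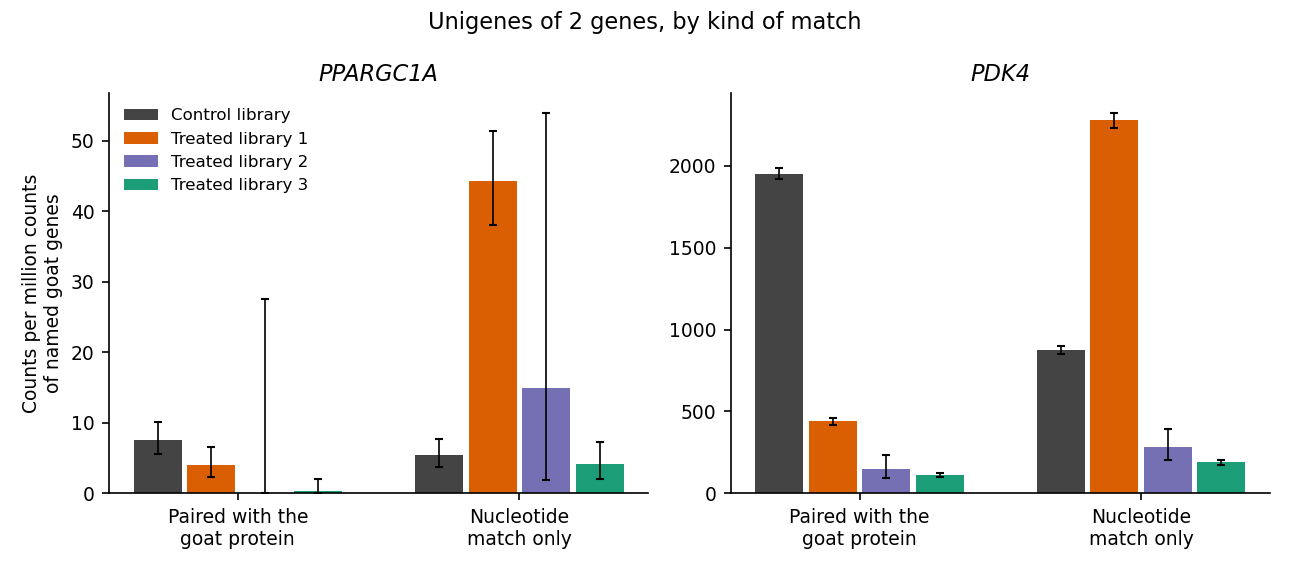
Counts per 1000000 counts of named goat genes (y axis, from 0) of PPARGC1A and PDK4, summed over unigenes paired with the goat protein at 80% identity or more and over unigenes matched by nucleotides only, with bars for the 4 libraries and lines for exact Poisson 95% intervals (counting error only). In treated library 1 the protein-paired bars are below the control and the nucleotide-matched bars above it, in both genes.

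This split was not particular to PPARGC1A and PDK4. Within each gene, the ratio of counts by nucleotide match only to counts paired with the protein was divided by the same ratio in the control library. Over 1012 genes with at least 20 control counts of both kinds, the median was 4.61 in treated library 1 (quartiles 2.1 and 8.37), and 90.7% of genes were above 1. It was 2.44 over 145 genes in treated library 2 and 2.44 over 986 genes in treated library 3. PPARGC1A, at 14.9 in treated library 1 and 10.6 in treated library 3, was in the upper part, with 8.6% and 1.93% of genes above it. PDK4 was at 11.6, 4.19 and 3.8 in treated libraries 1, 2 and 3, with 15.3%, 30.3% and 25.6% of genes above it. PPARGC1B at 0.871, PPARA at 1.06 and UCP3 at 0.048 in treated library 1 were on the low side, and the nucleotide-matched unigenes of UCP3, with 116 counts in the control library, had 0 there. The balance between the 2 kinds of unigene thus differed between the libraries across genes, and its part in the x-folds of the members was not tested.

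**Figure D3:**
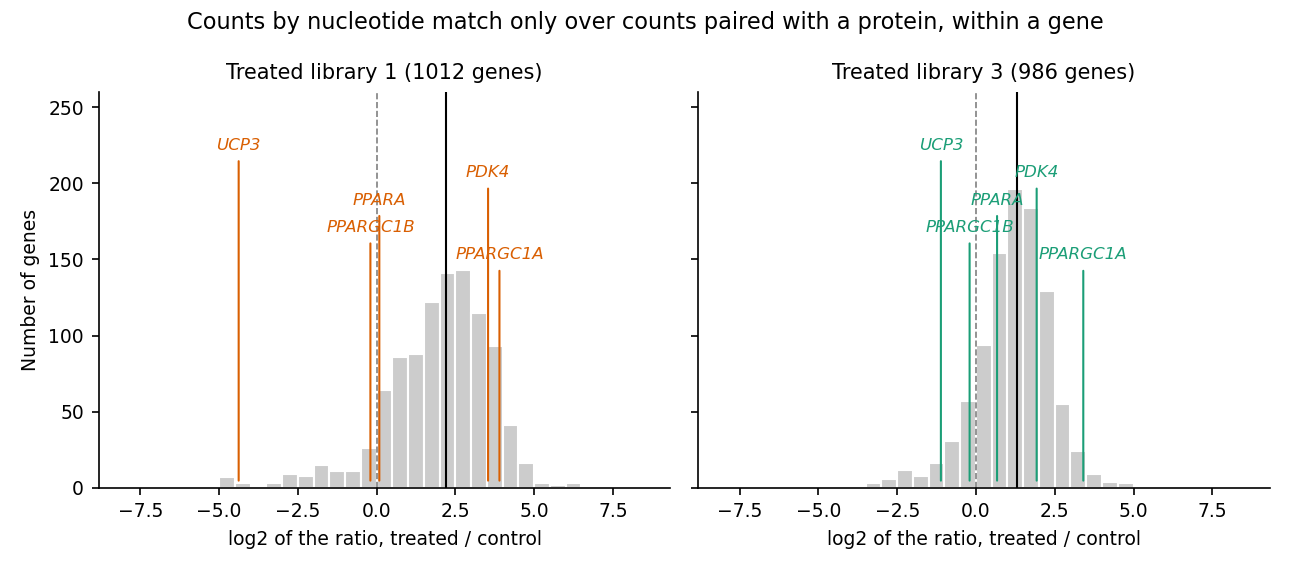
Number of genes (y axis) by the log2 of their ratio of nucleotide-matched to protein-paired counts in treated library 1 or 3 relative to the control library (x axis), with the median as a black line, no change as a dashed line, and the members with enough counts marked. The median is above no change in both, at 4.61 and 2.44 before taking logs, and PPARGC1A and PDK4 are to the right of it.

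When the unigenes with a nucleotide match were added and unigenes paired below 80% identity were left to their nucleotide match, all 9 genes could be counted. This assignment was chosen after the data had been seen. PPARGC1A then had 79 counts in the control library, against 193, 2 and 12 in treated libraries 1, 2 and 3, with x-folds of 3.73 (2.85 to 4.9), 1.15 (0.137 to 4.3) and 0.343 (0.17 to 0.633). Its direction in treated library 1 was thus opposite to that of the protein-paired unigenes. PDK4 had 17209, 10846, 58 and 803, with x-folds of 0.961 (0.938 to 0.985), 0.153 (0.116 to 0.198) and 0.105 (0.098 to 0.113), near 1 in treated library 1, and higher than from protein-paired unigenes but still below 0.6 in the others. PPARA was lower than under its name in treated libraries 1 and 3, at 0.0971 (0.0652 to 0.14) and 0.158 (0.108 to 0.223). In treated library 2 PPARA was at 0.374 (0.101 to 0.963).

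The values of UCP3 and CPT1B stayed close to those from protein-paired unigenes. CPT1B was at 0.246, 0.0645 and 0.187 in treated libraries 1, 2 and 3, and UCP3 at 0.13, 0.171 and 0.714. PPARGC1B had 174, 66, 3 and 57 counts and x-folds of 0.578 (0.429 to 0.772), 0.784 (0.16 to 2.33) and 0.739 (0.538 to 1), so its level in treated library 1 was now below the control beyond counting error. TFAM, the factor that packages and transcribes mitochondrial DNA, was found in part as LOC102187195 through its RefSeq gene number, with 33, 10, 0 and 9 counts, and together with its nucleotide matches had 69, 32, 3 and 27. With these matches the x-folds of TFAM were 0.707 (0.45 to 1.09), 1.98 (0.398 to 6.03) and 0.883 (0.544 to 1.4), so no difference was detectable by this assignment. By LOC102187195 alone, which did not reach the minimum mean level, TFAM was at 0.462 (0.203 to 0.96) in treated library 1, below the control beyond counting error. In treated library 3 that value was 0.615 (0.259 to 1.31), and in treated library 2 the interval reached 5.38. PPARD, the PPAR of oxidative muscle fibres, rested on a single unigene, c12571_g1, with 122, 676, 2 and 47 counts. Its x-folds were 8.45 (6.96 to 10.3), 0.746 (0.0893 to 2.75) and 0.869 (0.607 to 1.23). The sequence listed for c12571_g1 has 257 bases, but its 122 counts in the control library stood for an FPKM of 4.68. A PPARGC1B unigene of 256 bases, c27525_g1, had 3 counts there at an FPKM of 5.10. The counts of c12571_g1 thus belong to a longer sequence than the one listed, which was not seen. The listed sequence of c12571_g1 ends in 7 A.

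By this assignment, 5 of 9 genes were below 0.6 in treated library 1 (PPARGC1B, PPARA, ESRRA, UCP3 and CPT1B), against 27.7% of all 7989 genes, and 2, PPARGC1A and PPARD, were above 3, against 6.22%. In treated library 2, 5 were below 0.6 (19.1% of all genes) and 0 above 3 (15.2%). In treated library 3, PPARGC1A, PPARA, PDK4 and CPT1B were below 0.6 (31.1%) and 0 were above 3 (2.94%). CPT1B and PPARA were below 0.6 in all 3 treated libraries by this assignment, and PDK4 no longer was. The share of all genes below 0.6 in all 3 was not calculated for this assignment. The call of PPARA in treated library 2 rested on 4 counts, with an interval that reached 0.963. In edgeR none of the 7 genes found by name was called, and PPARD and TFAM were not looked up in that fit. PPARGC1A had a log2 fold change of 1.16 with an adjusted p of 0.791 in edgeR, opposite in sign to that from the protein-paired unigenes.

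**Figure D4:**
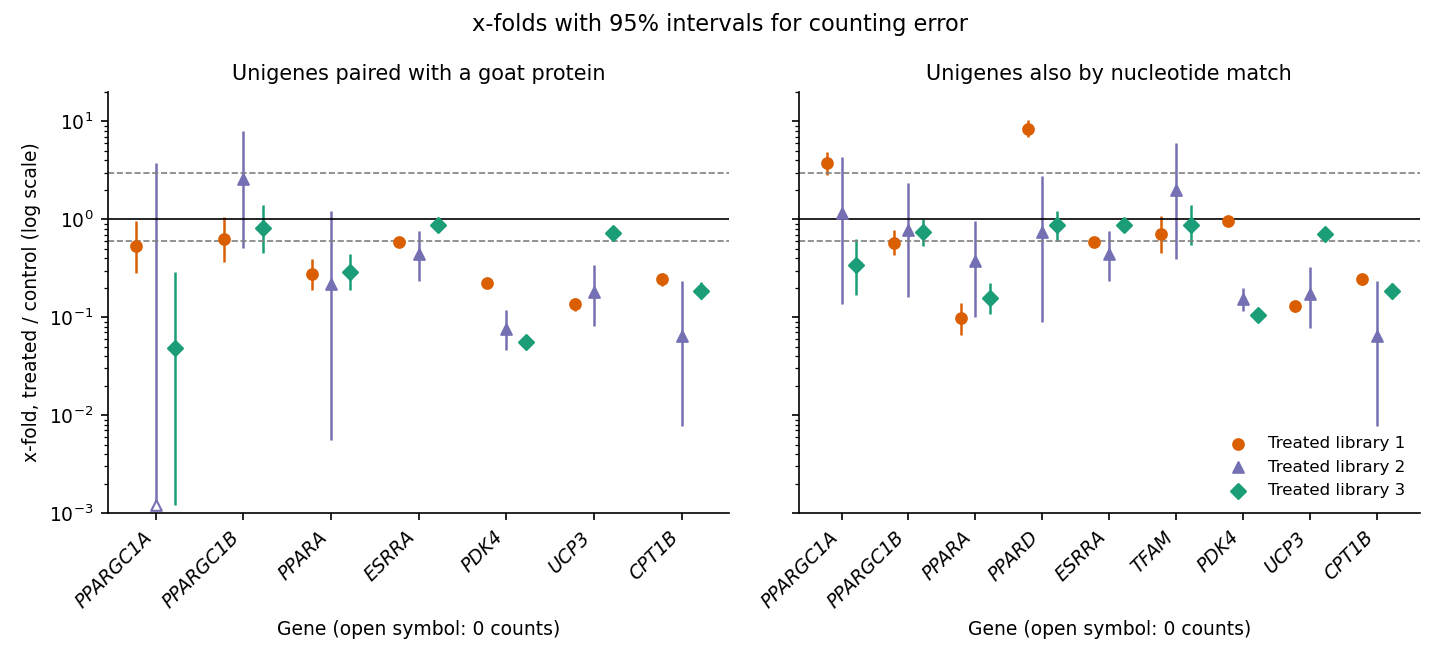
x-fold of each gene in treated libraries 1, 2 and 3 (y axis, log scale) with exact 95% intervals, from protein-paired unigenes on the left and with nucleotide matches added on the right. Dashed lines mark 3 and 0.6, an open symbol at the bottom stands for 0 counts, and PPARGC1A in treated library 1 lies at 0.53 on the left and 3.73 on the right, while CPT1B is nearly the same in both.

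Related genes were counted from a list of 77 partners and targets, of which 67 were found, 58 with enough counts. Their x-folds came from protein-paired unigenes only and were not calculated with nucleotide matches added, which had changed PPARGC1A and PDK4 in treated library 1. Of these 58, 34, 27 and 28 were below 0.6 in treated libraries 1, 2 and 3, and 15 in all of them, beside 33.7%, 21.0%, 34.8% and 8.97% of all genes tested, while 2, 1 and 0 were above 3, beside 5.03%, 13.3% and 2.47%. The edgeR fit tested 66 of the 67, of which 48 had a negative log2 fold change, a share that was not calculated for all genes. An unadjusted p under 0.05 in edgeR was reached by 13 (12 of them lower), beside 949 of all 8494 genes. Of the 66, 1 was called lower, beside 0.306% of all genes. That gene, PRKAB2, a regulatory subunit of the energy sensor AMPK, was picked out after its values had been seen. It had 97 counts in the control library, against 0, 0 and 3 in treated libraries 1, 2 and 3. The intervals of its x-fold reached 0.0591 in treated library 1 and 0.21 in treated library 3. A lower level was not detectable in treated library 2, where the interval reached 1.76. The log2 fold change of PRKAB2 was -4.63 (SE 1.05, adjusted p = 0.0273, edgeR). It was not called without treated library 1 (log2 fold change -3.56) or without treated library 3 (-8.62). In edgeR the adjusted p was 0.958 with all counts as library size and 0.723 with nucleotide matches added.

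Of the roles listed, fatty acid uptake and oxidation had the lowest median x-fold in treated libraries 1 and 3. Of 19 tested, 16, 14 and 13 were below 0.6 in treated libraries 1, 2 and 3, and 11 in all 3, where 33.7%, 21.0%, 34.8% and 8.97% of all genes were, with medians of 0.336, 0.345 and 0.444. HADHA, a subunit of the mitochondrial trifunctional protein that carries out β-oxidation of long chains, had 7844 counts in the control library, against 829, 22 and 988 in treated libraries 1, 2 and 3. Its x-folds were 0.161, 0.128 and 0.284. ACSL1, which activates fatty acids with coenzyme A, went from 1317 counts to 240, 6 and 186, with x-folds of 0.278, 0.207 and 0.319. ACAA2, the last enzyme of the β-oxidation cycle, went from 1138 to 179, 8 and 140, with x-folds of 0.24, 0.32 and 0.278. The gene above 3 in this group was LPL, which frees fatty acids from blood lipoproteins and was picked out after its values had been seen, with 223, 674, 35 and 94 counts and x-folds of 4.61, 7.14 and 0.951. LPL is also made by adipocytes, whose markers were highest in treated libraries 2 and 1. The part of adipocytes in the LPL values was not tested.

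Genes of pyruvate entry had 6 of 9 below 0.6 in treated libraries 1 and 2 and 1 of 9 in treated library 3, beside 33.7%, 21.0% and 34.8% of all genes, so that treated library 3 held a smaller share than all genes, with medians of 0.532, 0.306 and 0.668. DLD, the dihydrolipoamide dehydrogenase shared by several mitochondrial complexes, had 1676, 495, 10 and 449 counts and x-folds of 0.45, 0.271 and 0.604. PDHA1, the catalytic subunit of pyruvate dehydrogenase that PDK4 phosphorylates, had 1380 counts in the control library, against 36, 7 and 165 in treated libraries 1, 2 and 3, and x-folds of 0.0398, 0.231 and 0.27. PDHA1 was the only gene of this group below 0.6 in all 3 treated libraries, 1 of 9, beside 8.97% of all genes. By protein-paired unigenes, PDK4 and PDHA1 were both below the control in these libraries. For PDK4 in treated library 1 this did not hold with nucleotide matches added (0.961), and PDHA1 was not calculated that way.

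In the remaining roles the counts are to be read against the same shares of all genes (33.7%, 21.0% and 34.8%, and 8.97% in all 3). Coregulators had 5, 3 and 7 of 13 below 0.6 in treated libraries 1, 2 and 3, with medians of 0.742, 0.538 and 0.6. The AMPK subunit PRKAG3 had 741, 291, 1 and 159 counts and was below 0.6 in all treated libraries. The x-fold of PRKAG3 in treated library 1 was 0.599 (0.521 to 0.687), at the limit itself. Of 8 nuclear receptors and DNA-binding partners, 3, 2 and 3 were below 0.6 and none in all, with medians of 0.746, 0.457 and 0.645. RXRG, one of the RXR partners with which PPARs bind DNA, had 1585, 791, 40 and 715 counts and x-folds of 0.761, 1.15 and 1.02, none outside the limits. Another, RXRB, was named after its values had been seen, and had 99, 15, 1 and 14 counts. RXRB was at 0.231 (0.125 to 0.4), 0.459 (0.0115 to 2.62) and 0.319 (0.168 to 0.561) in treated libraries 1, 2 and 3. RXRA was not found by name. Of 5 genes of mitochondrial DNA upkeep, 2, 1 and 2 were below 0.6, with medians of 0.662, 0.463 and 0.619, and the polymerase POLG had 590, 256, 6 and 162 counts and x-folds of 0.662, 0.463 and 0.619. Of 4 genes of uncoupling and lipid storage, 2, 1 and 2 were below 0.6. PLIN5, a lipid droplet protein of oxidative tissue, was below 0.6 in all, with 485, 107, 3 and 84 counts and x-folds of 0.336, 0.281 and 0.391. PLIN2, another lipid droplet protein, was named after its values had been seen. It was above 3 in treated library 1, with 27 counts in the control library, against 55 in that library. The x-fold of PLIN2 there was 3.11 (1.93 to 5.12), near the limit, and it was 0.668 in treated library 3.

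**Figure D5:**
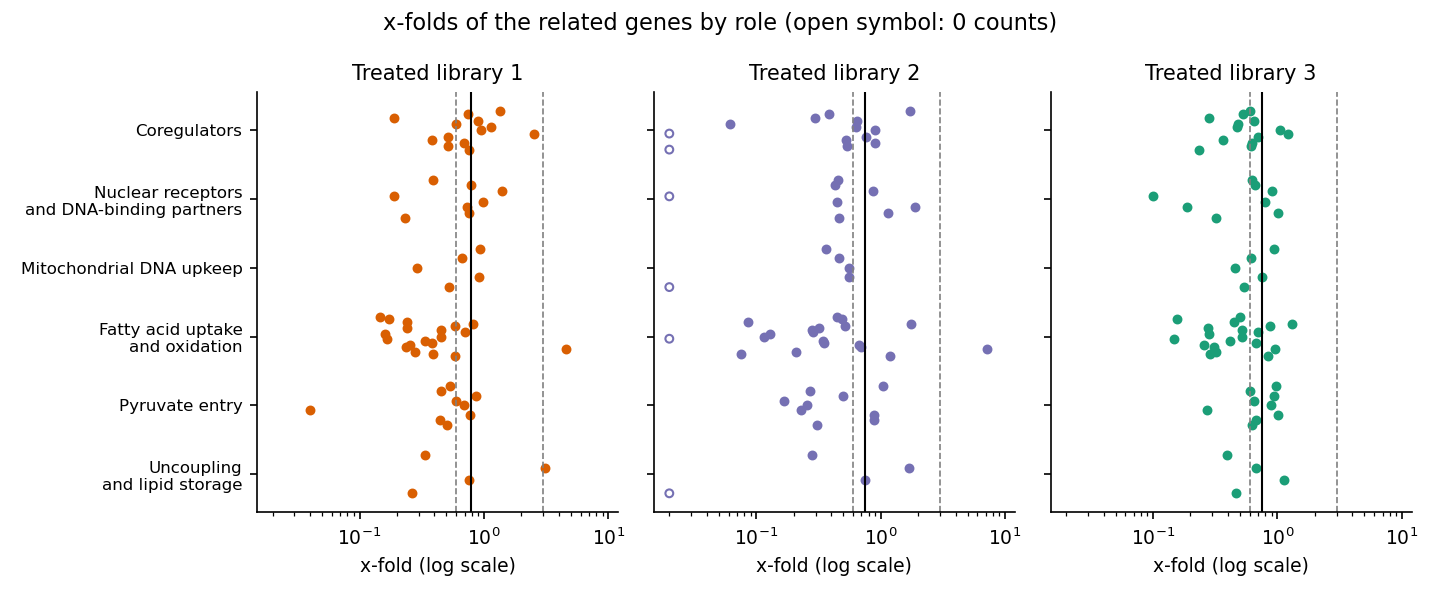
x-fold (x axis, log scale) of the 58 related genes with enough counts, by role, in treated libraries 1, 2 and 3, with dashed lines at 0.6 and 3 and a solid line at the median of all genes tested. Most genes of fatty acid uptake and oxidation lie left of 0.6 (16, 14 and 13 of 19), and the receptors and partners lie closer to the median of all genes.

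The study's own unit, FPKM, is relative to all fragments of a library. Relative to all counts, the 7 genes were lower in treated library 2 than the control by far more, with x-folds of 0.00196 for PDK4, 0.00165 for CPT1B, 0.0046 for UCP3, 0.0113 for ESRRA and 0.0658 for PPARGC1B. In treated libraries 1 and 3 the x-folds on that scale were 0.158 and 0.032 for PDK4, 0.17 and 0.106 for CPT1B, 0.0957 and 0.415 for UCP3, and 0.411 and 0.501 for ESRRA. On that scale all 6 genes tested were below 0.6 in every treated library, PPARGC1B and ESRRA included. The direction of PPARGC1B in treated library 2 was opposite to its direction among named goat genes. Named goat genes held 71.3% of all counts in the control library, against 50.1%, 1.82% and 40.4% in treated libraries 1, 2 and 3. This scale therefore lowers the x-fold of every named goat gene, and the share of all genes below 0.6 on it was not calculated.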

How the data were processed

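RNA of goat longissimus muscle was sequenced in 1 control and 3 treated libraries (Illumina HiSeq). The authors assembled 59774 unigenes, and deposited for each the expected count and FPKM (per kilobase and per 1000000 fragments of the library), with tables of lengths, database matches and the percent identity of protein matches. FastQC 0.10.1 is named in the submitters' processing notes, while the assembler and counter are not given in the sources used here. Unigenes paired with proteins lacking a gene name (25 unigenes) held 23.8%, 42.8%, 97.9% and 55.2% of paired counts in the control library and treated libraries 1, 2 and 3, and were left out of library sizes, which replaced the planned total of all paired counts.

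Expected counts, all whole in the deposited tables, were summed per goat gene. x-folds were calculated with exact Clopper-Pearson 95% intervals, with a minimum mean of 5 counts per 1000000 and, for calls, a floor of 3 counts in the treated library for a value below 0.6 and in the control library for one above 3. No p was calculated for 1 library against 1. edgeR 4.0.16 (quasi-likelihood, TMM, filterByExpr, Benjamini-Hochberg, threshold 0.05) compared 3 treated libraries with 1 control, on rounded counts, and DESeq2 1.42.0 was an alternative. The scripts were tested on simulated data. The members and lists were chosen with earlier results of these data known. Genes named were all members, and in each role the gene with most control counts and up to 3 outside the limits in all treated libraries. A gene named by this rule is not reported here. The planned search for genes most like PPARGC1A was not interpretable at its counts of 0 and 1 and is not given. Of the related genes, 3 were matched by a LOC name or synonym through RefSeq (ARS1.2), which was used for names only. Deposited tables that sort unigenes into FPKM classes were not used. Python 3.11.15, pandas 2.3.3, scipy 1.17.1 and Biopython 1.88 were used.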

Additional observations from a re-analysis of the deposited data

How the results depend on the processing

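No paired analysis was possible because there was 1 control library. The members called below 0.6 (5, 4 and 3 in treated libraries 1, 2 and 3, with a floor of 3 counts that left out PPARA in treated library 2) and the 2 called in all 3 changed most with the scale. With all counts, with summed FPKM, or with paired unigenes that lack a gene name included (added after the data had been seen), 6 were below 0.6 in treated library 3, and 6 in all treated libraries. The totals of all counts and of all paired counts lower the x-fold of every named goat gene. The share of all genes below 0.6 was not calculated for these settings. Leaving out 1 treated library gave 2 to 4 members below 0.6 in those that remained, 4 without treated library 3, and the matching shares of all genes were not calculated. PPARGC1B, on 3 counts, made 1 member above the upper limit in treated library 2 with median scaling, with the unigene of the highest count alone, and with limits of 2 and 0.5. With nucleotide matches added (after the data had been seen), 2 members were above 3 in treated library 1, PDK4 lost its call in treated library 1 (0.961), and PPARGC1A was reversed to 3.73 in treated library 1 and to 1.15, on 2 counts, in treated library 2. Other settings (genes of the mitochondrial genome left out, another pseudocount, identity of at least 80%, the transcript table, minimum levels of 1 and 20) kept each count within 1.5 times.

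In edgeR, the genes called higher (12) and lower (26) became 6 and 53 without TMM factors, 0 and 0 with all counts as library size (37 at an unadjusted p under 0.05), 3 and 1 with DESeq2 (418 unadjusted), 42 and 62 without the filter, and 15 lower with nucleotide matches. Leaving out 1 treated library gave 1 to 19 higher and 0 to 49 lower: 5 and 2 without treated library 1, 19 and 49 without treated library 2, and 1 and 0 without treated library 3. Members called were 0 in all these fits, with no adjusted p for 3 of the 7 in DESeq2. Counts of named goat genes were 133809 in treated library 2, so its single values are coarse, and the control library has no replicate.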
